A study of Mus musculus with 4 samples.

Results

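Solute carrier (Slc) genes were taken as all genes whose symbol in either of 2 deposited lists of N6-methyladenosine (m6A) peaks begins with Slc and a family number, 1 symbol being left out by rule. By this choice, 183 of the 9650 genes with a peak were Slc genes, and 182 of them are protein-coding in RefSeq; the other, Slc2a4rg-ps, is a transcribed pseudogene. They belong to 43 families by number, and the RefSeq table lists 374 protein-coding genes under the same rule. The list from control livers (FF) held 254 Slc peaks of 14057 peaks in all, on 154 Slc genes. The list from knockout livers (HKO) held 289 of 14693, on 174 Slc genes. A few symbols name proteins that are not carriers: Slc9a3r1 and Slc9a3r2 encode scaffold proteins, and Slc7a6os and Slc4a1ap are named after a neighbour or a partner.

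Solute carriers are membrane proteins that move amino acids, sugars, organic ions, metals, nucleotides and vitamins across the cell surface and organelle membranes, by exchange, by cotransport with an ion or down a gradient. In the liver they take up bile salts, drugs and nutrients from blood, and the Slc25 family carries metabolites across the inner mitochondrial membrane for respiration, the urea cycle and fatty acid oxidation. m6A is a methyl mark on adenosines of messenger RNA that is densest near stop codons and in last exons, and ALKBH5 is an enzyme that removes it.

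The livers came from Alkbh5flox/flox mice (FF) and from Alkbh5-HKO mice (HKO, not written out in the labels), all 9 weeks old and fed normal chow. For each genotype, 300 μg of RNA was pooled from 3 mice, broken into fragments of about 100 nt and incubated with an anti-m6A antibody for 2 h, and the precipitated fragments (IP) and the input were sequenced with paired reads of 150 bp. The 4 libraries, 1 IP and 1 input per genotype, gave 1 peak list per genotype, so there is no replicate and no p-value between genotypes. Which cells lacked the gene, and which of its exons were deleted, was not given in the sources used here. Sources disagree on reagents: the design text names a Synaptic Systems antibody and a New England Biolabs kit, the sample protocols a Millipore antibody and a NuGEN kit.

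Alkbh5 itself had 3 FF peaks and 0 HKO peaks, and Fto, the other m6A demethylase, had 0 and 1. Since the deleted exons are not known, these peaks do not test the knockout. Of 8 hepatocyte marker genes, 7 had a peak in either list and 4 had one in both. Alb had a peak in FF alone, Ttr and Cps1 in HKO alone, and Tf in neither list. Apob had the most, with 10 FF and 9 HKO peaks. Of 21 markers of Kupffer, endothelial, stellate, bile duct and blood cells, 13 had a peak, 8 in both lists, 1 in FF alone and 4 in HKO alone. The shares over all 9650 genes with a peak were 75.6% in both lists, 11.2% in FF alone and 13.2% in HKO alone. In whole liver RNA, fewer cells of a type and less RNA per cell cannot be told apart. The lists do not give numbers of reads, and library depth is therefore unknown. A gene with no peak is not shown to be unmethylated. The folds of FF and HKO peaks were measured in different IP reactions, and no direction of change in methylation is read from them. Whether a peak lies in a coding or untranslated stretch was not analysed here, and positions are given from the limits of the gene on GRCm38.p6. Each interval is a 95% Wilson interval, which accounts for counting error alone.

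The sequences printed here are those at transcription starts, where a group of FF peaks had no counterpart in the HKO list. Of the FF Slc peaks without a counterpart, 35.3% were centred within 500 bp of the gene start, against 34.7% over all genes. Each line gives 70 bases before a RefSeq start in lower case and the first 30 transcribed bases in capitals, written 5′ to 3′ on the gene's strand, from the RefSeq promoter table (GRCm38.p6). In the first 6 genes an FF peak that overlapped no HKO peak covered the first 50 transcribed bases at the start of the gene.
Slc35a3, chr3:116712251-116712350, minus strand: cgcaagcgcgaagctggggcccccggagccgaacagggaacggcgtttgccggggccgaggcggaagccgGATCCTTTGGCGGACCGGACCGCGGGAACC
Slc12a4, chr8:105966086-105966185, minus strand: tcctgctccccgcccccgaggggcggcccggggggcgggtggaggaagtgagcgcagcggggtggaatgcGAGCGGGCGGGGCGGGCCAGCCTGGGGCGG
Slc7a6os, chr8:106210904-106211003, minus strand: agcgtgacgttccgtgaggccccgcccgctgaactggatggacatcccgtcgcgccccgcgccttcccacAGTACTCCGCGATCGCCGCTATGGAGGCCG
Slc9a3r1, chr11:115163271-115163370, plus strand: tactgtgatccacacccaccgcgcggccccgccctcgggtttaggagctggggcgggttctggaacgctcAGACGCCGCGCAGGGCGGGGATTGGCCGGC
Slc38a2, chr15:96699699-96699798, minus strand: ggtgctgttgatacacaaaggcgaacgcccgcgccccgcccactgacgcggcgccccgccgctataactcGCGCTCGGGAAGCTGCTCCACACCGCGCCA
Slc25a23, chr17:57059834-57059933, minus strand: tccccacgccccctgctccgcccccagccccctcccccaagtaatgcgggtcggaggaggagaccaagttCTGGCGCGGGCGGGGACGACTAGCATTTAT
The next 3 are starts inside a gene, likewise under an FF peak with no HKO counterpart.
Slc2a9, chr5:38483356-38483455, minus strand: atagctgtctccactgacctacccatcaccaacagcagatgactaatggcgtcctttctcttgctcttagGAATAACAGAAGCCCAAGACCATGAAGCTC
Slc12a7, chr13:73763627-73763726, plus strand: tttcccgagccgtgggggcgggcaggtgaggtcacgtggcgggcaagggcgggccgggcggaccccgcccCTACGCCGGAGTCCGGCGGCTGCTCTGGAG
Slc29a1, chr17:45592908-45593007, minus strand: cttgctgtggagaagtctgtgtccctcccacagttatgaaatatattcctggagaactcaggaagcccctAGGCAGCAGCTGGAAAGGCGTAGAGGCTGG
At the next 2 starts, the peak was in the HKO list and had no FF counterpart.
Slc10a2, chr8:5105258-5105357, minus strand: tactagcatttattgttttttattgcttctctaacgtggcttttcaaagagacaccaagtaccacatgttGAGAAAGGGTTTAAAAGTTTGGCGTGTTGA
Slc35e3, chr10:117746329-117746428, minus strand: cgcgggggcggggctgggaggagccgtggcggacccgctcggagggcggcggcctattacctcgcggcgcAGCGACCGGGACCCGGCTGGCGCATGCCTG
At the last 3 starts, peaks of both lists overlapped.
Slc16a1, chr3:104638594-104638693, plus strand: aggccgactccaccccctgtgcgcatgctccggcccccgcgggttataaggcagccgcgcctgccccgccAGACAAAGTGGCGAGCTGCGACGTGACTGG
Slc10a1, chr12:80968050-80968149, minus strand: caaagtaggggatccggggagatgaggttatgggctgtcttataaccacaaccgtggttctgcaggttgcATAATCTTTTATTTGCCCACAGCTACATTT
Slc3a1, chr17:85028277-85028376, plus strand: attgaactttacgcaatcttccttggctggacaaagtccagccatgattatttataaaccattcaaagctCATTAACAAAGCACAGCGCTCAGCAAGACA

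The starts were searched for 4 forms of the m6A motif, each of 5 letters, in their first 50 transcribed bases. The most common form, GGACT, was searched together with its variant GGACA, the variant GGACC and a form with another first letter, AGACT. Of all 32851 RefSeq windows, 19.9% held at least 1 of them on the transcribed strand and 18.8% on the opposite strand. Among the 13 FF peaks without HKO overlap that reached into the first 50 bases of a start, 3 starts held one: GGACC at Slc35a3, seen in its capitals, and GGACT at Slc12a4 and Slc7a6os, beyond the 30 bases shown. Of the 5 such HKO peaks, 3 starts held one, those of Slc35e3, Slc11a1 and Slc46a1. The first transcribed base was A at 3 of 13 and at 2 of 5 of these starts, and at 34.4% of all starts. With so few starts, these shares have wide intervals (8.18% to 50.3% for 3 of 13). A motif in a window is a description of its letters, and the absence of these 4 does not bear on other forms.

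Slc genes were found in the peak lists much as other genes were, with a lean towards the HKO list among those found in 1 list. In both lists were 145 of 183 Slc genes (79.2%, interval 72.8% to 84.5%), against 75.6% of all genes with a peak. The FF list alone held 9 (4.92%, 2.61% to 9.08%), against 11.2% of all genes. The HKO list alone held 29 (15.8%, 11.3% to 21.8%), against 13.2%. Of the 38 Slc genes in 1 list, 29 were thus in HKO (76.3%, 60.8% to 87.0%), where the share over all genes was 54.0%. With the longer list cut by q to the 14057 peaks of the shorter, 10 Slc genes were in FF alone and 26 in HKO alone, and over all genes 1172 and 1141. The all-gene shares of 75.6%, 11.2% and 13.2% are also the background for the counts by class below.

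**Figure D1:**
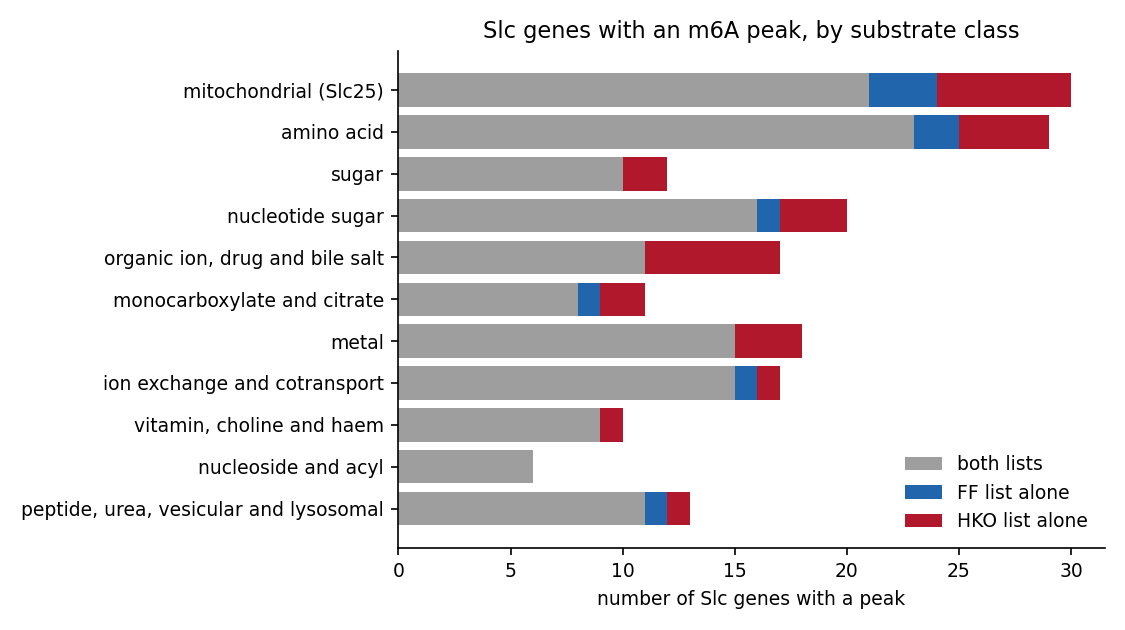
Number of Slc genes with an m6A peak in both lists (grey), in the FF list alone (blue) and in the HKO list alone (red), by substrate class assigned from the family number. The organic ion class has 6 genes with HKO peaks only and none with FF peaks only, and all 6 genes of the nucleoside and acyl class are in both lists. Over all genes with a peak, 75.6% were in both lists, 11.2% in FF alone and 13.2% in HKO alone.

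At the level of single peaks, 203 of 254 FF Slc peaks (79.9%, 74.6% to 84.4%) overlapped an HKO peak by at least 1 exonic base on the same strand, against 74.8% of all FF peaks. In the other direction, 197 of 289 HKO Slc peaks (68.2%, 62.6% to 73.3%) overlapped an FF peak, against 71.5% of all HKO peaks. List-specific peaks, those without an overlap, numbered 51 in FF and 92 in HKO. Most were faint: the median log10 q was -3.52 for the FF-specific and -3.48 for the HKO-specific Slc peaks, against -16.9 and -26.7 for the overlapping ones. Strong list-specific peaks, defined by a fold of at least 2 and a q of at most 1e-05, made up 17 of the 254 FF peaks (6.69%, against 6.40% of all FF peaks) and 31 of the 289 HKO peaks (10.7%, 7.66% to 14.8%, against 8.87%). The fold, the authors' ratio of IP over input for each peak, had a median of 6.46 over FF Slc peaks and 7.89 over HKO Slc peaks, below the medians of all peaks of each list (8.80 and 10.4). Of the 183 genes, 77 had all their peaks overlapping, and 6 were in both lists with no overlap at all. These 2 counts were not computed over all genes, so they have no background.

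At neither end of the gene lay 28 of 51 FF-specific Slc peaks (54.9%) and 46 of 92 HKO-specific ones (50%), against 48.8% and 62.0% over all list-specific peaks. The remaining ones divided differently between start and end in the 2 lists. Among FF-specific Slc peaks, 18 of 51 were within 500 bp of the start of the annotated gene (35.3%, 23.6% to 49%), against 34.7% over all FF-specific peaks, and among HKO-specific Slc peaks 11 of 92 (12%, 6.81% to 20.2%), against 4.71%. Within 1000 bp of the gene end lay 5 of 51 FF-specific Slc peaks (9.80%, 4.26% to 21%), against 17.1% over all genes, and 35 of 92 HKO-specific ones (38%, 28.8% to 48.3%), against 33.6%. The counting intervals of the FF and HKO lists did not overlap at either end. They treat peaks as independent and hold no variation between pools, so they do not test the genotypes. Of the strong list-specific peaks, 9 of 17 FF peaks (52.9%) and 0 of 31 HKO peaks lay at the start, and 0 of 17 and 15 of 31 (48.4%) at the end. The place of strong peaks over all genes was not computed, so these counts have no background. For list-specific peaks of any strength, the same difference between the lists stands in the all-gene values, so it is not particular to carriers.

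**Figure D2:**
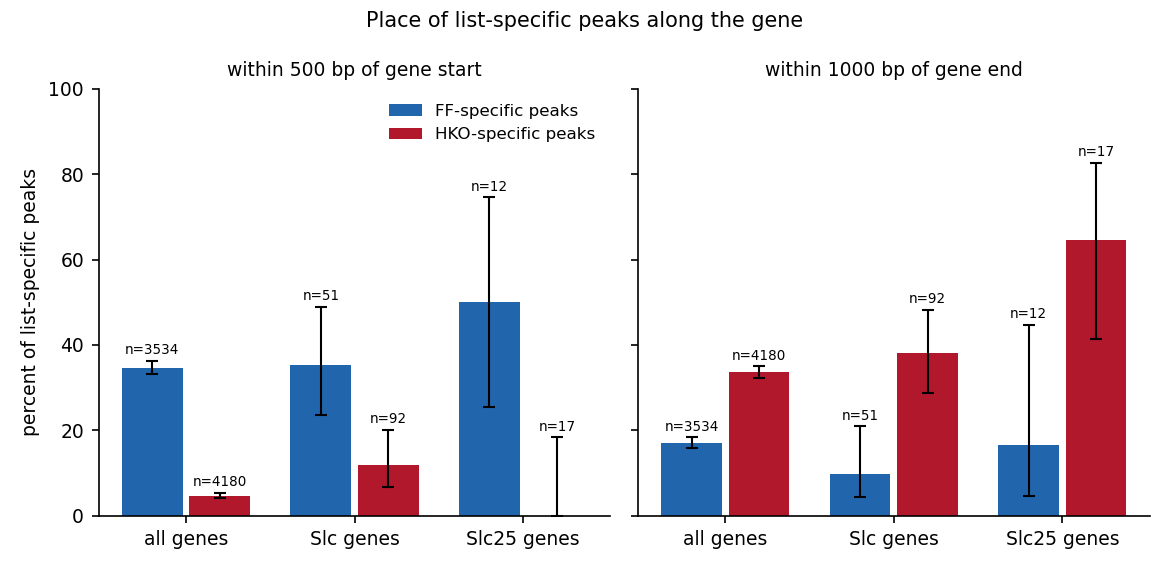
Percent of list-specific peaks centred near the gene start (left) and near the gene end (right), for all genes, Slc genes and Slc25 genes. Bars give the share, lines the 95% Wilson interval, and n the number of list-specific peaks. FF bars (blue) exceed HKO bars (red) at the start in each of the 3 groups, and HKO bars exceed FF bars at the end.

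An overlapping peak lay elsewhere on 14 of the genes with an FF-specific start peak, and the same count over all genes was not computed. The 18 FF-specific start peaks fell on 18 genes. Beside mitochondrial carriers, they included Slc35g1 (fold 54.0, log10 q -17.4), Slc35a3 (11, -5.34), which supplies UDP-N-acetylglucosamine to the Golgi, Slc7a6os (6.94, -9.52), the scaffold gene Slc9a3r1 (5.48, -8.99), and the aromatic amino acid carrier gene Slc16a10 (3.92, -5.06). Fainter ones lay on Slc38a2 and Slc3a2 (amino acid transport), Slc12a4 and Slc12a7 (potassium-chloride cotransport), Slc20a2 (phosphate) and Slc44a1 (choline). Among the 11 HKO-specific start peaks, that on Slc27a5 had the smallest q (log10 q -8.16) but a fold of only 1.37. The others, on Slc1a5, Slc6a8, Slc35a2, Slc35e3, Slc10a2, Slc22a18, Slc11a1, Slc39a9, Slc46a1 and Slc52a2, had log10 q values of -4.46 or higher.

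Pairs in which 1 FF peak overlapped 1 HKO peak allow both folds to be set side by side. Of 180 such Slc pairs, the fold was higher in the HKO list in 120 (66.7%, 59.5% to 73.1%), against 59.7% of all 9322 pairs. At the start it was higher in HKO in 6 of 19 (31.6%, 15.4% to 54.0%), against 29.4% over all genes. At the end it was higher in 46 of 56 (82.1%, 70.2% to 90.0%), against 66.1%, and elsewhere in 68 of 105 (64.8%), against 60.8%. Differences of 2-fold or more ran in favour of HKO in 25 end pairs and of FF in 4, and at the start in 2 and 9. Over all genes, these counts were 890 and 256 of 2764 end pairs, and 99 and 357 of 780 start pairs. The counting interval of the Slc value at the end lies above the all-gene value, but it treats pairs on 1 gene as independent. Division of each fold by the median of its list left the share at the end at 78.6%, against 57.5% over all genes.

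**Figure D3:**
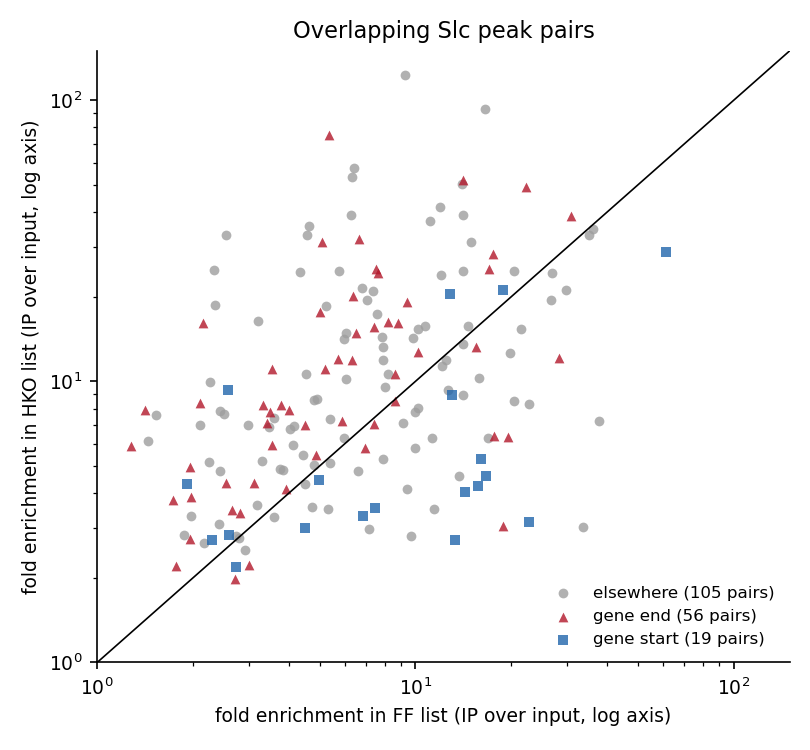
Fold in the HKO list against fold in the FF list for 180 overlapping Slc peak pairs (log axes), with the line of equal folds. Of the end pairs (red triangles), 46 of 56 lie above the line, and 6 of the 19 start pairs (blue squares) do.

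The 13 start pairs with the higher fold in FF included those on Slc25a28, Slc25a44, Slc43a3, Slc6a9, Slc10a5, Slc22a7, Slc16a1, Slc16a12, Slc49a4, Slc27a4, Slc15a3 and Slc17a2. The 6 with the higher fold in HKO were on Slc25a5, Slc25a20, Slc3a1, Slc22a23, Slc27a5 and Slc18a1. In 7 Slc genes an overlapping pair lay at the start and another at the end, so that the 2 places could be compared within 1 gene, a comparison chosen after the values were seen. The HKO over FF ratio of folds was higher at the end than at the start in 7 of 7 (interval 64.6% to 100.0%), against 80.9% of the 188 genes with such pairs. The difference, on the log2 scale, had a median of 1.88 over these Slc genes and of 1.5 over all. It was largest in Slc25a28 (4.48) and Slc43a3 (3.50), followed by Slc25a44 (2.38), Slc22a7 (1.88), Slc17a2 (1.55), Slc10a5 (1.19) and Slc3a1 (0.97). A factor common to a whole list cancels in this ratio, while one that differs between start and end does not, and the cause was not tested.

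High folds among overlapping peaks did not all lean the same way. Slc43a2, a carrier of large neutral amino acids, had a pair 4948 bp from the end with folds of 37.6 in FF and 7.21 in HKO. Slc36a4, another amino acid carrier gene, had close values in both lists (36 and 34.8), as had the choline transporter-like gene Slc44a2 at its end (30.9 and 38.6). Higher in HKO were Slc38a7, a lysosomal amino acid carrier, with 14 and 50.5 at 1437 bp from the end, and the organic cation carrier gene Slc22a3, with 22.3 and 49.2 at the end. Specific peaks in both lists stood on Slc35e2 and Slc66a2. The FF-specific peak of Slc35e2 lay 504 bp from the start, just beyond the 500 bp limit (fold 23.5, log10 q -5.40), and its HKO-specific one 3794 bp from the end (2.82, -5.76). On Slc66a2 the FF peak lay 1624 bp and the HKO peak 1849 bp from the start (folds 2.05 and 2.55, log10 q -4.08 and -7.59).

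The mitochondrial carriers of the Slc25 family were the largest class, with 30 of 47 RefSeq genes carrying a peak. Of these Slc25 genes, 21 were in both lists (70%, against 75.6% of all genes), 3 in FF alone (10%, against 11.2%) and 6 in HKO alone (20%, 9.51% to 37.3%, against 13.2%). Their median folds, 4.60 in FF and 4.96 in HKO, were lower than those of every other class but the nucleoside and acyl class (2.76 and 4.24). FF-specific Slc25 peaks lay at the start in 6 of 12 (50%, 25.4% to 74.6%), against 34.7% of all FF-specific peaks, and HKO-specific ones in 0 of 17, for which the interval reaches 18.4%, against 4.71%. Both intervals hold the all-gene value. At the gene end were 2 of 12 FF-specific peaks (16.7%, 4.70% to 44.8%), against 17.1%, and 11 of 17 HKO-specific peaks (64.7%, 41.3% to 82.7%), against 33.6%.

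Among Slc25 genes with an FF-specific peak at the start, Slc25a23, an ATP-Mg/phosphate carrier, had the smallest q: the peak, chr17:57059549-57059909 on the minus strand, lay 180 bp from the start with a fold of 12.8 (log10 q -53.6). That gene also had overlapping peaks near its end, with folds of 2.11 and 3.41 in FF and 7.01 and 7.11 in HKO, and an HKO-specific peak 705 bp from the end (fold 2.96, log10 q -14.3). Slc25a10, the dicarboxylate carrier, had an FF-specific peak 150 bp from the start (fold 4.96, log10 q -16.4) and 3 overlapping pairs further along. An HKO-specific peak of Slc25a10 lay 2119 bp from the end (fold 2.05, log10 q -10.8). Slc25a33, a pyrimidine nucleotide carrier, had a single peak, in FF at 134 bp (fold 13.3, log10 q -9.46). Slc25a30 had FF peaks at 104 bp (fold 3.77, log10 q -4.89) and 4761 bp before its end (fold 2.95, log10 q -12.2) and none in HKO. Slc25a48 at 487 bp (log10 q -1.52) and the NAD carrier gene Slc25a51 at 165 bp (log10 q -2.79) had faint FF-specific start peaks. In these 6 genes a peak at the start was listed in FF and none in HKO.

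The opposite case was Slc25a3, the mitochondrial phosphate carrier, which had 1 peak in HKO, chr10:91116782-91116960 on the minus strand, 297 bp from the gene end (fold 4.96, log10 q -108), and none in FF. Slc25a20, the carnitine-acylcarnitine carrier, had an HKO-specific peak 236 bp from the end (fold 3.33, log10 q -29.8) beside a faint FF-specific one 606 bp from the end (fold 1.25, log10 q -2.52). Its start peaks overlapped, with folds of 2.57 in FF and 9.33 in HKO. Further HKO-specific end peaks with a q of 1e-05 or less were on Slc25a45 (fold 10.9, log10 q -10.6), Slc25a25 (2.38, -12.1) and the coenzyme A carrier gene Slc25a42 (2.01, -5.24). Slc25a51 had one 1409 bp from its end (fold 2.32, log10 q -5.24). The genes in HKO alone other than Slc25a3 were all fainter: Slc25a12 (aspartate-glutamate carrier), Slc25a17, Slc25a21 with 2 peaks, Slc25a29 and Slc25a39 had log10 q values between -3.97 and -1.60. Slc25a4, an ADP/ATP carrier, had peaks that did not overlap, an FF peak 370 bp and an HKO peak 163 bp from the end, both faint (log10 q -2.06 and -3.17). Its close relative Slc25a5 had an overlapping start pair with folds of 1.92 and 4.32. Whether reads were shared between the 2 genes was not tested.

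**Figure D4:**
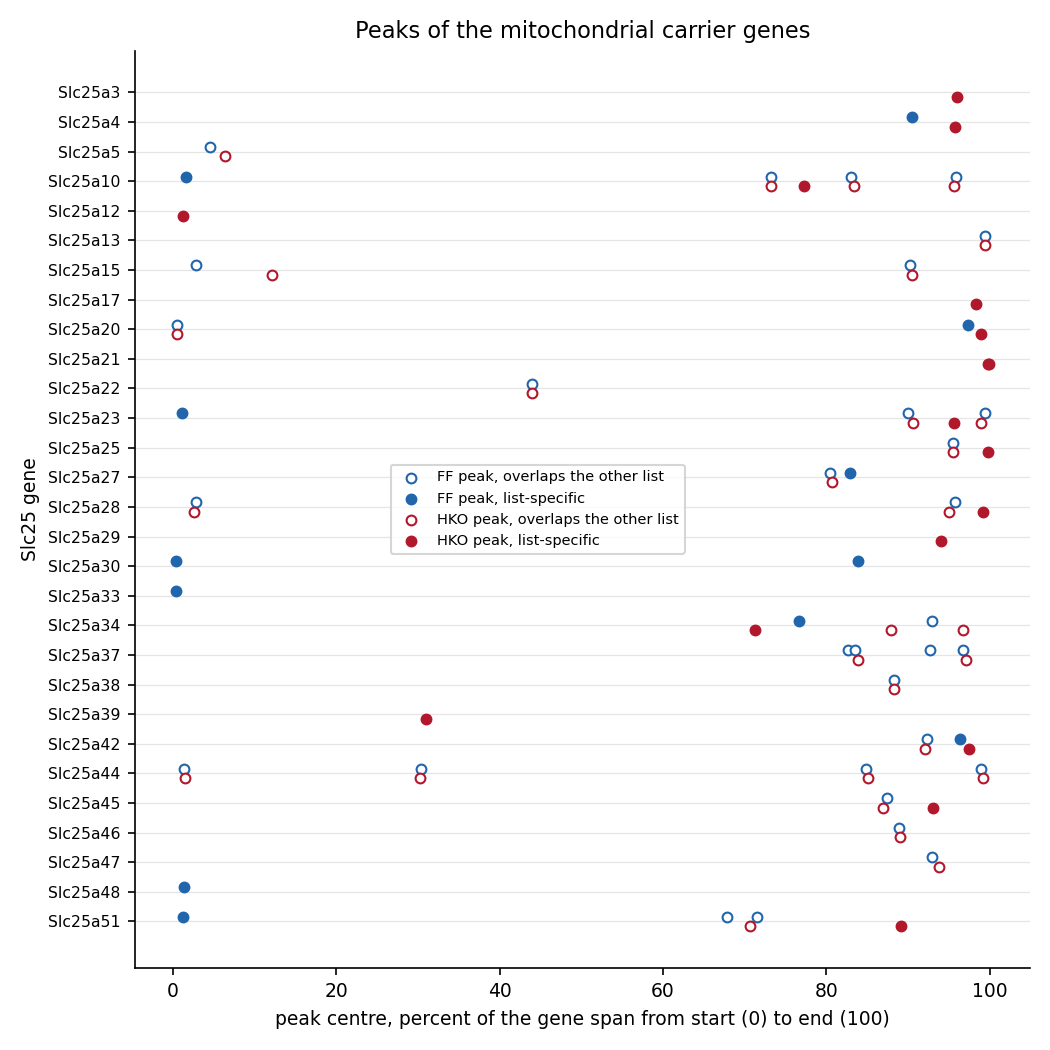
Peak centres of 29 of the 30 mitochondrial carrier genes along the gene span, from start (0 percent) to end (100 percent), FF in blue above and HKO in red below, list-specific peaks filled. Filled blue points lie at the left edge on 6 genes, and most of the filled red points lie at the right edge.

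Most other Slc25 genes had overlapping peaks alone. Slc25a47, a liver-enriched carrier, had 1 pair, centred 489 bp (FF) and 430 bp (HKO) from the end, with folds of 7.42 and 7.07 and a log10 q listed at minus infinity in both lists. Slc25a13 (citrin, the liver aspartate-glutamate carrier) had 1 pair with folds of 2.65 and 3.48, and Slc25a15, the ornithine carrier of the urea cycle, 2 pairs with folds of 7.13 and 4.43 in FF and 2.99 and 5.46 in HKO. Both mitoferrin genes, which bring iron into mitochondria, had high folds in the HKO list: Slc25a37 at 60.2 over an HKO peak of 1437 exonic bp in 4 blocks that met FF peaks of folds 8.62, 30.9 and 3.64, and Slc25a28 at 31.3 near its end against 5.09 in FF. At its start Slc25a28 had folds of 16.7 in FF and 4.60 in HKO. Slc25a44, which carries branched-chain amino acids, had 4 pairs and no list-specific peak. Slc25a46, Slc25a22 and Slc25a38 had 1 overlapping pair each. Slc25a27 had a pair with folds of 10.2 and 15.3 and a faint FF-specific peak. In Slc25a34 an FF peak of fold 8.81 met HKO peaks of folds 3.96 and 3.50, and FF- and HKO-specific peaks lay 1185 and 1455 bp from the end (log10 q -9.11 and -2.45).

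Amino acid carrier genes (families 1, 3, 6, 7, 36, 38 and 43) numbered 29 with a peak, 23 in both lists, 2 in FF alone and 4 in HKO alone. Over all genes with a peak, these shares were 75.6%, 11.2% and 13.2%. Slc38a3, the hepatocyte glutamine transporter, had a peak in both lists but in different places. The FF peak, chr9:107667089-107668878 on the minus strand in 2 exon blocks, lay 1700 bp from the start of the gene (fold 4.36, log10 q -14.9). The HKO peak, chr9:107651602-107651990, lay 642 bp from the end (fold 2.64, log10 q minus infinity). Slc38a2, a neutral amino acid carrier, had a faint FF-specific peak at its start and a pair near the end with folds of 5.21 and 11.1. Slc7a2, the hepatic cationic amino acid carrier, had 1 pair with folds of 1.53 and 7.62 and then 2 HKO-specific peaks nearer the end (folds 4.07 and 2.61, log10 q -12.8 and -8.55). Slc6a12 (betaine) had an end pair with folds of 6.67 and 32.2, and its family member Slc6a13 one with 1.41 and 7.90. The heavy-chain gene Slc3a1 had overlapping pairs at both ends, with folds of 12.8 and 20.5 at the start and 3.54 and 11.1 at the end. Slc6a6, the taurine transporter, had a faint FF-specific peak mid-gene (log10 q -1.52) and an HKO-specific one 343 bp from the end (fold 5.42, log10 q -9.96). The genes in 1 list alone, Slc1a4 and the serotonin transporter gene Slc6a4 in FF and Slc1a5, Slc38a11, Slc6a8 and Slc7a8 in HKO, had no log10 q below -3.50.

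Sugar carriers (families 2, 5, 45 and 50) had 12 genes with a peak, 10 in both lists and 2 in HKO alone, Slc2a5 (fructose; log10 q -2.81) and Slc2a6 (fold 13.6, log10 q -5.01). Slc2a2, the main hepatocyte glucose transporter, had 1 pair with folds of 4.01 and 7.89 and log10 q values of -188 and minus infinity. Slc2a1, the glucose transporter of most other cells, had a pair with folds of 8.80 and 16.1. Slc2a9, a urate transporter, had 3 overlapping pairs towards its end and an FF-specific peak over the inner start printed above, 15033 bp into the gene (fold 13.3, log10 q -5.43). In the nucleotide sugar family Slc35, 20 of 27 genes had a peak: 16 in both lists, 1 (Slc35a3) in FF alone and 3 in HKO alone, against 75.6%, 11.2% and 13.2% of all genes with a peak. Strong HKO-alone peaks lay on Slc35d2 (fold 8.30, log10 q -26.5) and Slc35f5 (fold 3.05, log10 q -12.0), centred 1120 and 673 bp from the end, and a faint one on Slc35a2. Slc35d1 had an inner peak 7256 bp in, over another RefSeq start, with folds of 33.7 in FF and 3.03 in HKO.

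Organic ion, drug and bile salt carriers (families 10, 22 and 47) had 11 of 17 genes in both lists and the other 6 in HKO alone, against 75.6% and 13.2% of all genes with a peak. Slc10a1, the sodium-bile salt uptake protein of hepatocytes, had 3 overlapping pairs. Over the RefSeq start printed above, which lies inside the gene span, the folds were 2.91 in FF and 2.51 in HKO. At 2616 and 2720 bp from the end they were 21.5 and 15.3, and at the end (FF peak chr12:80953185-80955519, minus strand, 2 exon blocks) 14.1 and 52. Slc10a2, the ileal and bile duct bile salt carrier, had 3 peaks, all in HKO: at its start (fold 4.85, log10 q -4.46) and 2999 bp and 567 bp from the end (folds 7.07 and 22.9, log10 q -5.49 and -5.16). Of the bile duct markers, Krt19 and Epcam had no peak in either list, Sox9 had 1 in each and Spp1 1 in HKO, and their part in the Slc10a2 result was not tested. Slc22a7, the organic anion transporter, had a start pair with folds of 16.1 and 5.30 and an end pair with 2.80 and 3.39. The carnitine transporter gene Slc22a5 and its relatives Slc22a4 and Slc22a21 each had 1 faint HKO peak near the end (log10 q -2.15, -3.50 and -2.14), and Slc22a18 a faint one at its start. Slc22a28 had an HKO peak 313 bp from the end (fold 4.58, log10 q -5.56). It is a close copy of Slc22a27 and Slc22a30, which had end pairs in both lists, and whether reads were split among the 3 was not tested.

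**Figure D5:**
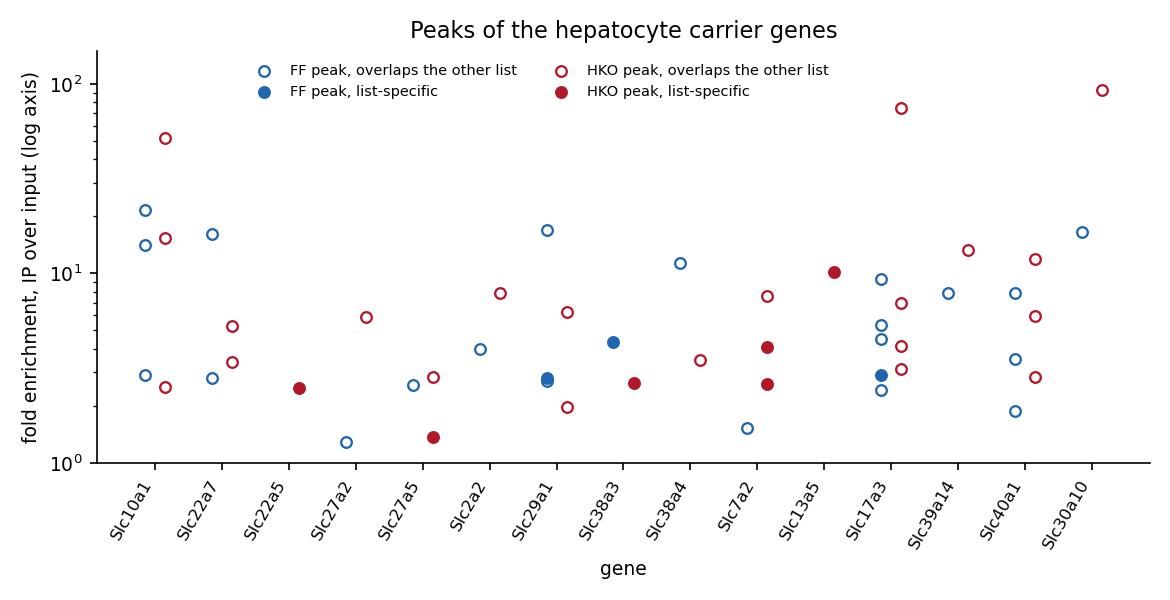
Fold enrichment of every peak of 15 of the 16 hepatocyte carrier genes with a peak (log axis), FF in blue and HKO in red, list-specific peaks filled. Slc30a10 and Slc17a3 have the highest HKO points, at 93.3 and 75.1, and Slc22a5 and Slc13a5 have HKO points only.

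Monocarboxylate and citrate carriers (families 13 and 16) had 11 genes with a peak, and 14 of their 26 HKO peaks and 15 of their 18 FF peaks overlapped the other list, against 71.5% of all HKO and 74.8% of all FF peaks. Slc16a12 (creatine) had 3 pairs, with folds of 22.7 and 3.17 at the start, 5.25 and 18.5 at 6717 bp from the end and 4.92 and 8.66 nearer the end, and then an HKO-specific peak 972 bp from the end (fold 8.41, log10 q -33.1). Slc16a10 had an FF-specific start peak, an HKO-specific peak 43407 bp from the end (fold 5.01, log10 q -6.51), a pair 3603 and 3588 bp from the end with folds of 2.43 and 7.83, and 2 fainter HKO-specific peaks 2616 and 329 bp from the end. Slc16a5 and Slc16a9, also of the monocarboxylate family, had some of the highest FF folds among overlapping peaks. On Slc16a5 the FF peak of fold 45.4 and one of 7.05 met a single HKO peak of 34.4. On Slc16a9 a pair 1192 and 1222 bp from the end had 35.2 and 33.1, beside a fainter pair and 1 faint specific peak in each list. Slc16a6 had 2 FF and 4 HKO peaks, of which an overlapping one 4781 and 4586 bp from the end had folds of 6.27 and 39. Slc16a1, the lactate and pyruvate carrier, had 3 pairs and no list-specific peak, with folds of 13 and 8.91 at the start printed above. Slc13a5, the liver citrate transporter, had 1 faint HKO peak (fold 10.2, log10 q -2.19), and Slc13a4 1 faint FF peak (log10 q -1.33).

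Metal carriers (families 11, 30, 31, 39, 40 and 41) had 18 genes with a peak, 15 in both lists, 0 in FF alone and 3 in HKO alone (Slc39a6 and the magnesium carriers Slc41a1 and Slc41a2, none with a log10 q below -4.68). Over all genes with a peak, 75.6% were in both lists, 11.2% in FF alone and 13.2% in HKO alone. In 17 of the 20 pairs of metal carrier genes the fold was higher in the HKO list, as it was in 66.7% of all Slc pairs and 59.7% of the pairs over all genes. Slc30a10, the manganese exporter of hepatocytes, had 1 pair 4159 and 4144 bp from the end (FF peak chr1:185464184-185465022, plus strand) with folds of 16.5 and 93.3. Its log10 q values ran the other way, -112 in FF and -38.7 in HKO. The zinc carrier gene Slc39a3 had a pair with folds of 9.27 and 123 (log10 q -10.7 and -35.3). Slc11a2, an iron importer, followed with 6.32 and 53.5. Slc39a14, which takes up zinc, manganese and iron, had 1 pair with 7.91 and 13.3 and log10 q values of -230 and minus infinity. The iron exporter gene Slc40a1 (ferroportin) had 3 pairs, with folds of 7.92, 1.88 and 3.54 in FF and 11.9, 2.85 and 5.94 in HKO. Slc11a1, which macrophages express, had an end pair with 6.32 and 11.9. The metal carriers' only list-specific peak at a q of 1e-05 or less was an HKO one inside Slc39a8 (fold 26.3, log10 q -6.13).

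Ion exchangers and cotransporters (families 4, 8, 9, 12, 20 and 26) had 17 genes with a peak, 15 in both lists. Of their 29 FF peaks 10 were FF-specific, and of their 26 HKO peaks 8 were HKO-specific. At the start lay 4 of the former, and at the end 5 of the latter. Over all genes, 74.8% of FF and 71.5% of HKO peaks overlapped the other list. The all-gene shares by place were 34.7% of FF-specific peaks at the start and 33.6% of HKO-specific peaks at the end. Slc9a3r1 had 2 strong FF-specific peaks, at 89 bp and 576 bp from the start (folds 5.48 and 2.52, log10 q -8.99 and -55.0), while near its end FF peaks of folds 2.69 and 1.78 met a single HKO peak of fold 5.44 (log10 q -281). Slc12a7 had FF-specific peaks at its first start and at the inner start 30711 bp in (folds 17.2 and 5.48), a pair 1766 and 1601 bp from the end with folds of 7.37 and 20.9, an end pair with 1.73 and 3.78, and a last HKO-specific peak 299 bp from the end. Slc4a2, a chloride-bicarbonate exchanger, had 2 faint FF-specific peaks, 1611 and 7548 bp from the start, and an HKO-specific one 119 bp from the end (fold 6.43, log10 q -18.6). Slc8b1, the mitochondrial sodium-calcium exchanger, had an end pair and an HKO-specific peak 90 bp from the end (fold 2.67, log10 q -8.66). Slc26a1, a sulphate transporter, had 3 pairs, the middle one at folds of 12.5 and 11.9 with both q values at minus infinity. Slc12a9 had a pair 4155 and 4110 bp from the start with folds of 29.8 and 21.2 and an end pair with 17.6 and 6.39. Slc9a7, a sodium-proton exchanger, had 1 faint specific peak in each list, 794 bp from the end in FF and 330 bp in HKO.

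Among vitamin, choline and haem carriers, 9 of 10 genes were in both lists, and Slc19a1, the reduced folate carrier, was in HKO alone (fold 6.79, log10 q -6.63). Slc23a1 (vitamin C) had an HKO-specific peak of fold 17 (log10 q -16.4) next to a pair with folds of 1.97 and 3.31. Slc46a3, a lysosomal carrier, had a pair with folds of 6.40 and 57.6. All 6 nucleoside and acyl genes were in both lists. There, Slc27a2, a very long-chain acyl-CoA synthetase, had an end pair with 1.28 and 5.89, and Slc27a5, which activates bile acids, a start pair with 2.59 and 2.84. Slc29a1, a nucleoside transporter, had 3 FF and 2 HKO peaks: the FF-specific one covered the inner start printed above (fold 2.81, log10 q -5.85). Of the 13 peptide, vesicular and lysosomal genes, 11 were in both lists, with Slc15a3 having the highest FF fold of any overlapping Slc peak (61.1, against 28.9 in HKO). Slc17a3, a urate and organic anion carrier, had 5 FF and 4 HKO peaks, the last pair at folds of 5.35 and 75.1.

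Of 17 carriers picked for their role in hepatocyte uptake and efflux, 16 had a peak, 14 in both lists and Slc22a5 and Slc13a5 in HKO alone. Slc47a1 had none. Of 10 carriers picked for other cell types, 4 had a peak: Slc11a1, Slc2a1 and Slc12a2 in both lists and Slc6a4 in FF alone. The difference between these picked sets was not tested. No peak was listed for the red-cell anion exchanger gene Slc4a1, for Slc2a3, Slc5a1 and Slc34a2, or for the neuronal vesicular carriers Slc17a7 and Slc32a1.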

How the data were processed

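MeRIP-seq peaks of mouse liver RNA were analysed from 2 deposited lists, 1 per genotype, in which the authors kept peaks at a q-value of up to 0.05 that exomePeak 2.16.0 found in the IP library over the input of that genotype, per the design text. BWA 0.7.12, HOMER 4.9.1, fastp 0.19.11 and GRCm38.p6 are listed in the submitters' processing notes, and their parameters are not given in the sources used here. The deposited lists give each peak a position, strand, exon blocks, gene symbol, a p-value, its log10 p-value and log10 q-value (each taken as a score) and the authors' fold, a ratio of IP over input. These values served to rank and filter peaks inside each list. The folds of overlapping pairs were also set side by side between the lists. Libraries were grouped by their titles.

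The tools were Python 3.11.15 with statsmodels 0.14.6 for Wilson intervals, numpy 2.4.6, pandas 2.3.3 and matplotlib 3.10.9. Peaks overlapped if their exon blocks shared at least 1 bp on the same strand; place was taken from the centre of the exonic sequence and the limits of the gene in the RefSeq table, where all 183 Slc symbols matched. Coordinates count from base 1. RefSeq starts were available for 137 of the genes, 31 of them with more than 1. Motifs inside peaks need a genome sequence, which was not used here, so the search was made in the promoter windows. Simulated peaks were used to check the overlap code. Substrate classes follow family numbers, so a class can hold a gene with another substrate, such as the multivitamin carrier Slc5a6 among sugar carriers. The solute carriers, their classes and the marker lists were chosen with earlier results of these data known. Genes were named by rule: members of the fixed lists, all Slc25 genes, the 10 highest folds among overlapping peaks and the 10 smallest q among list-specific peaks of each list, strong peaks on genes in 1 list, genes with 4 or more peaks in a list, and genes with list-specific peaks in both. The rule also takes 3 genes that are not reported here, though the counts include them. Genes with list-specific peaks at a start, genes in 1 list alone and other pairs were named after their values were seen. The authors' q threshold, the fold, the list length, the overlap, the windows and the gene length were varied.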

Additional observations from a re-analysis of the deposited data

How the results depend on the processing

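The number of Slc genes in both lists and in each list alone stayed within 1.5 times under a stricter q, a fold of 2 or more and lists of equal length, with 122 in both, 7 in FF alone and 20 in HKO alone at a q of 1e-05 or less. Over all 7314 genes left at that q, 5454 were in both lists (74.6%), 706 in FF alone (9.65%) and 1154 in HKO alone (15.8%). At that q, the share of overlapping Slc peaks was 85.8% in FF and 74.9% in HKO, and the share of FF-specific Slc25 peaks at the gene end was 0%. With strong list-specific peaks only, FF-specific Slc peaks lay at the start in 52.9% and at the end in 0%, and HKO-specific ones in 0% and 48.4%. The same shares over all genes were not computed for strong peaks. With windows of 200 bp at the start and 500 bp at the end, the HKO-specific shares were 5.43% and 21.7%. The narrower windows count fewer peaks by construction; in the other settings the cause was not tested. The remaining 36 values, among them those for an overlap of 50% of the shorter peak, genomic spans and genes over 10 kb, stayed within the counting interval of the reported share or, for counts of genes, within 1.5 times. Counting any RefSeq start (45.1% for FF-specific peaks), dividing folds by the list's median and keeping pairs at a q of 1e-05 or less were chosen after seeing the data. No paired analysis was possible because there is 1 list per genotype and no replicate. The depth of the libraries is unknown, so a peak missing from a list may be below its detection.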
